A study of Mus musculus with 10 samples.

Results

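The type I interferon response genes described here were 37 genes, taken by their symbols from a table of 55414 genes. They were picked by function, with earlier results of these data known, and no threshold on values was used: 2 receptor subunits, 5 transcription factors, 5 nucleic acid sensors and 25 induced effector or modifier genes. All 37 symbols occurred once in the table. Transcript levels were given as TPM, which scale reads by transcript length and by library, so that levels of different genes can be set side by side.

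The study measured polyadenylated RNA in mpkCCD cells, a mouse cortical collecting duct line of principal cell type, after loss of the calcium/calmodulin-dependent kinase CAMK2D. The 10 samples came from 8 cell lines: the untransfected parental line (labelled wild-type mpkCCD), 2 Camk2d-intact clones with 2 samples each, and 5 Camk2d-KO clones with 1 sample each. All lines had been grown on permeable supports with 0.1 nM dDAVP, a vasopressin analog, for 7 days in medium that held dexamethasone. KO 1 and KO 2 were made with a guide RNA against exon 8 of Camk2d, and KO 3, KO 4 and KO 5 with a guide RNA against exon 9. The clones, intact ones included, were grown from single cells that had received a Cas9-GFP plasmid by lipid transfection, whereas the parental line had not, so transfection and cloning were shared by 7 of the 8 lines and a KO line is a single clone. No group received interferon, and no sample was without dDAVP. The comparison between groups asks what deletion of Camk2d does to these genes, and the comparison of each line with the others asks whether a single clone carries an interferon state. The sources do not say whether the paired samples of an intact clone were separate cultures, so their p-values may measure technical spread in part.

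Cells respond to foreign RNA or DNA through sensors that activate IRF3 and IRF7 and so switch on interferon genes. Secreted type I interferons bind a receptor of the subunits IFNAR1 and IFNAR2, which activates a complex that holds STAT2 and IRF9 and binds the interferon-stimulated response element (ISRE) in the promoters of antiviral genes. Many such genes are also transcribed at a low tonic rate without infection.

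The ISRE is a pair of GAAA repeats. Its core was searched as GAAA, then 2 bases of any kind, then GAAA again, on both strands, counting overlapping matches, in windows from 250 bases before to 50 bases after each RefSeq transcription start (GRCm38.p6). RefSeq promoter windows were found by symbol for 28 of the 37 genes, and 13 of these 28 (46.4%) held a match, against 3.44% of all 32851 windows and 3.99% of the 27025 genes with a window. The bases upstream of the start are shown for 5 genes with a match (Ifit1, Ifit3, Isg15, Oas1a and Gbp2) and for Oasl1, whose level differed most between the lines and whose window held none. Each is 160 bases long, reads 5′ to 3′ on the strand of the gene and ends at the base before the start. Capitals mark the ISRE core on either strand.
Ifit1: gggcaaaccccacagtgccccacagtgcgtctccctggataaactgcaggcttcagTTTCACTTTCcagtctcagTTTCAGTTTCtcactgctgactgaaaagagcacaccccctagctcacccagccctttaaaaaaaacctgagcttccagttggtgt
Ifit3: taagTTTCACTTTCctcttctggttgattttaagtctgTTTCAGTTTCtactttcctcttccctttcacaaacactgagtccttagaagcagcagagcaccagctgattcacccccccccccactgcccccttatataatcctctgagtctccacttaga
Isg15: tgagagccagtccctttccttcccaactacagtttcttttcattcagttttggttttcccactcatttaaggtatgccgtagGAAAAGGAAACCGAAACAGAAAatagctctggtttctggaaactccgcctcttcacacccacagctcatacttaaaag
Oas1a: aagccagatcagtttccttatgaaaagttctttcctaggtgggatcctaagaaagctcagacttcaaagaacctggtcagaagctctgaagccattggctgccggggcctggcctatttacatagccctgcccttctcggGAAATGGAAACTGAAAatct
Gbp2: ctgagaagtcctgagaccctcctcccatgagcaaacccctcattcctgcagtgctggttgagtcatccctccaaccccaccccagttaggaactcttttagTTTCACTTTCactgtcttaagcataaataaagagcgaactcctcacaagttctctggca
Oasl1: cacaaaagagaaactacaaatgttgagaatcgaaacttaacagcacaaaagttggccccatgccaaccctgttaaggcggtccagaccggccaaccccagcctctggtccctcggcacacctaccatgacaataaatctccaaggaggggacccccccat

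The Ifit1 bases lie at chr19:34640729-34640888 on the plus strand, with matches starting 104 and 85 bases upstream of the start. Ifit3 lies at chr19:34583369-34583528 on the same strand, with matches 156 and 122 bases upstream that read the same letters, TTTCACTTTC and TTTCAGTTTC, as those of Ifit1. Isg15 (chr4:156200819-156200978, minus strand) held 3 overlapping matches at 78, 72 and 66 bases upstream, the most of the 28 genes. Oas1a (chr5:120907526-120907685, minus strand) held an overlapping pair at 20 and 14 bases upstream. Gbp2 (chr3:142620503-142620662, plus strand) held a single match at 59 bases upstream, and Oasl1 is at chr5:114923080-114923239 on the plus strand. The other genes with a match were Rsad2, Oas3, Bst2, Stat2, Ddx58, Eif2ak2, Ifih1 and Gbp3. For Bst2 and Stat2, and for Ifnar1 among the genes with no match, the window's bases after the start were not found in a GENCODE transcript of the gene. The start of these windows is therefore less certain. The 13 genes with a match had a median level of 14.2 TPM, and the 15 genes with a window but no match had a median of 47.7 TPM, which included the receptor subunits and Irf1, Irf3 and Irf9. The gamma-activated sequence (GAS, TTCNNNGAA on both strands) was found in 9 of the 28 genes (32.1%), among them Irf1 and Isg20, against 8.3% of all windows and 9.55% of all genes. A match is a run of letters and not a measured binding site.

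The samples were first checked against their labels. Camk2d was at 123 to 141 TPM in the intact samples and at 19.8 to 29.8 TPM in the KO samples, so that the transcript was reduced in every KO clone and absent from none. These values are of RNA only, and the paper reports by immunoblot that the KO clones lacked the CAMK2D protein. The principal cell markers Aqp2 and Avpr2 were expressed in all lines, Elf5 was listed at 0 in 8 of 10 samples, and Scnn1b stayed under 1 TPM. Of 14 immune cell markers 12 were under 1 TPM in all samples, including Ptprc, and their sum was 15.3 to 21.96 TPM in intact and 14.9 to 30.3 TPM in KO samples, mostly from Csf1r and Cd68. All 11 stromal and endothelial markers were under 1 TPM. The part of these markers in any difference was not tested, and fewer expressing cells cannot be told apart from less RNA per cell. KO 2 stood apart from the other lines with 1537 of 20000 genes called, against 48 to 212 in the other 7 lines.

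Most genes of the set were expressed in all lines. No sample had received interferon or a block of the pathway, so a basal level cannot be told apart from a mildly induced one. Of the 37 genes, 31 had a mean of at least 1 TPM, 21 of at least 10 TPM and 8 of at least 50 TPM, while 23.5% of all genes in the table reached 1 TPM. The highest were Isg20 (101 TPM over the 10 samples), Ifnar2 (93.7), Irf3 (86.9), Ifnar1 (85.1) and Irf1 (72.6). Induced genes stood at very different levels. Isg15, Ifit1, Ifit3 and Usp18 had means of 29.1, 19.7, 17.0 and 12.3 TPM, whereas Mx1 was at 0 to 0.20 TPM and was listed at 0 in 3 samples, Oas3 at 0.01 to 0.34 TPM, Mx2 at 0.15 to 0.43 TPM and Rsad2 at 0.51 to 2.03 TPM. Of 21 interferon genes in the table, 17 were listed at 0 in all 10 samples. Ifnb1 was above 0 only in KO 3 (0.18 TPM), and Ifnk, at 0 to 1.57 TPM, was the only interferon gene that passed 1 TPM in any sample. TPM hold no read depth, so no limit of detection can be given for these zeros.

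**Figure D1:**
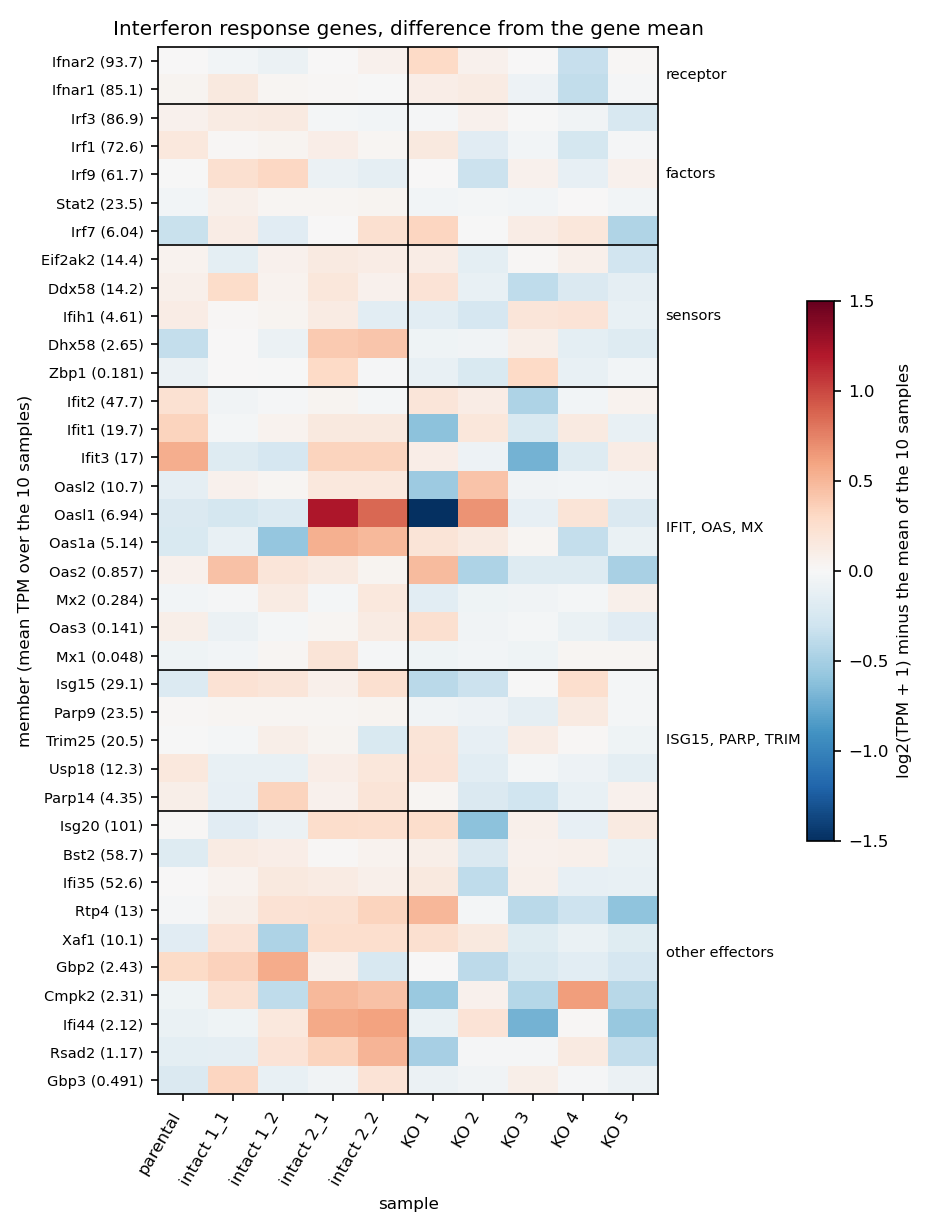
Level of each of the 37 genes (rows, grouped by role, with the mean TPM in brackets) in each of the 10 samples (columns), as log2(TPM + 1) minus the mean of that gene over the samples, red above and blue below it, with colours saturated beyond 1.5. Most cells are pale, and the strongest colours are Oasl1 in both samples of intact clone 2 (red) and in KO 1 (blue).

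The summed level of the 37 genes varied little over the samples. It was 923 TPM in the parental line, 929 and 927 TPM in intact clone 1, 965 and 955 TPM in intact clone 2, and 963, 838, 872, 833 and 870 TPM in KO 1 to KO 5. The groups overlapped through KO 1, and the other 4 KO clones were below every intact sample. The sum is carried by the abundant genes and says little about the low ones.

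No gene of the set differed between the KO and intact groups beyond the spread between samples by an adjusted test. With limma on log2(TPM + 1) over the 20000 genes of highest mean, 0 of 36 genes passed an adjusted p of 0.05 (Mx1 was too low to be tested), and the lowest adjusted p was 0.646. In that comparison 0.005% of all genes tested, a single gene, passed. At an unadjusted p of 0.05 limma gave 2 of 36 genes (Gbp2 and Ddx58), against 6.99% of all genes, and none of the 36 had KO and intact samples that did not overlap, against 1.64% of all genes. By the exact permutation test over the samples, in which the smallest two-sided p is 0.00794, 3 of the 36 genes were under 0.05 before any adjustment (Gbp2, Ddx58 and Stat2), against 7.15% of all genes. That test treats the paired samples of an intact clone as independent. With 1 value per line, an exact permutation test added after the data were seen, whose smallest p is 0.0179, left Gbp2 alone under 0.05 (p = 0.0357), against 3% of all genes, with Ddx58 at 0.125 and Stat2 at 0.179.

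The direction of the small differences was shared. Of the 36 genes 33 (91.7%) had a lower mean in the KO samples, against 42.7% of all genes tested, with a median log2(KO/intact) of -0.11 against 0.02 for all genes. The individual values ran from -0.55 for Oasl1 to 0.06 for Irf7, and 26 of 36 were within 0.25 of 0. The value of Oasl1 rested on few samples: it was -0.15 without KO 1 and -0.05 without intact clone 2. The genes of one pathway are not independent of each other, and no test was made of the count. The summed level of the collecting duct markers, of which 9 of 14 tested were lower in KO, was 14720 to 16252 TPM in intact and 11650 to 14785 TPM in KO samples, and Aqp2 was at 3773 to 5502 TPM in intact and 1281 to 3789 TPM in KO samples (log2(KO/intact) -0.89 ± 0.27, limma adjusted p = 0.565). The part of this shift in the count was not tested. With both samples of intact clone 2 left out, a choice made after the values were seen, the count was 29 of 36 with a median of -0.07, and with 1 value per cell line it was 30 of 36. By role, the mean was lower in all 9 tested IFIT, OAS and MX genes, all 10 other effectors and all 5 sensors, and in 4 of 5 factors, 4 of 5 genes of the ISG15 and ubiquitin group, and 1 of 2 receptor subunits. The sign was not fixed for all of them: it changed under at least 1 alternative in 10 of the 36 genes (Irf7, Ifnar2, Ifit2, Oas1a, Oasl2, Dhx58, Isg20, Bst2, Xaf1 and Gbp3), and in Oas1a also when its near-identical copy Oas1g was added.

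**Figure D2:**
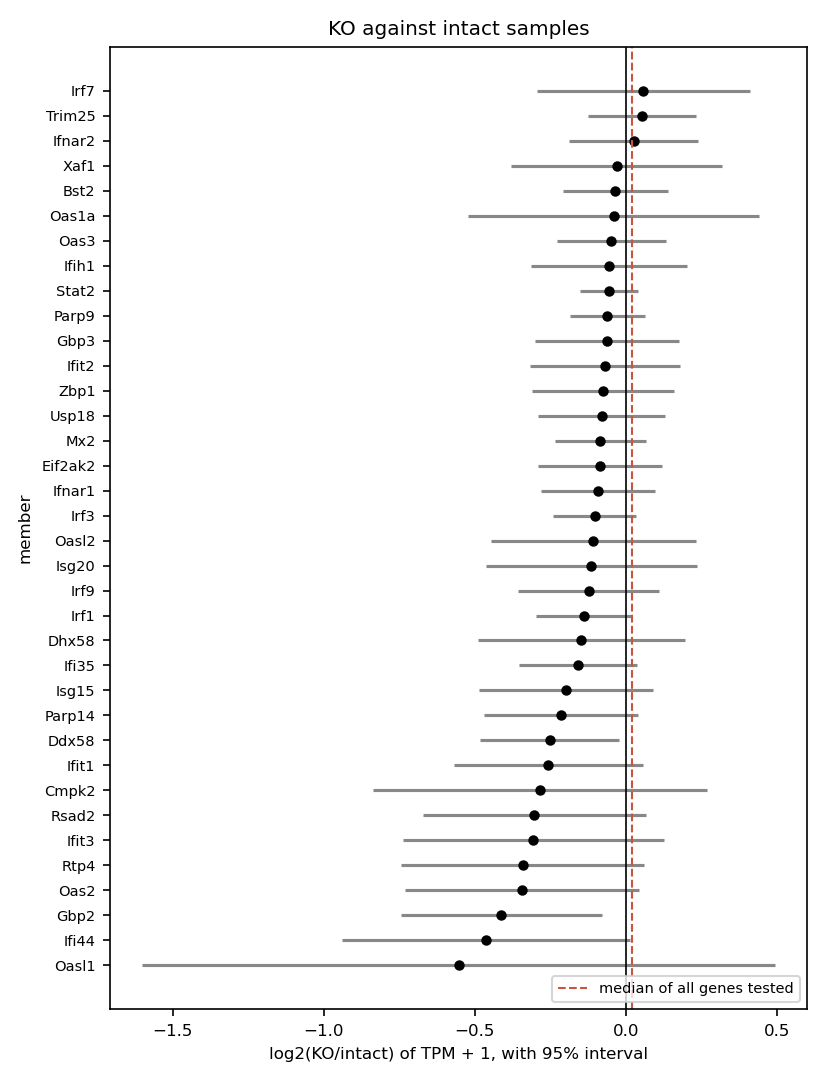
Difference between the 5 KO and the 5 intact samples for the 36 tested genes, as log2(KO/intact) of TPM + 1 from limma, with the 95% interval as a bar. The points lie mostly left of the median of all genes tested (dashed line at 0.02), and all intervals but those of Ddx58 and Gbp2 include 0.

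The receptor subunits were abundant. Ifnar1 was at 87.1 TPM in the parental line, 94.1 and 86.5 in intact clone 1, 85.9 and 84.3 in intact clone 2, and 90.9, 92.6, 80.4, 65.4 and 84.0 in KO 1 to KO 5. Ifnar2 was at 93.6 TPM in the parental line, 90.4 and 87.3 in intact clone 1, 93.4 and 97.1 in intact clone 2, and 115, 97.8, 93.9, 73.3 and 94.6 in KO 1 to KO 5. KO 4 was the lowest sample for both subunits, and the groups overlapped, with KO 1 and KO 2 above every intact sample for Ifnar2 and no KO clone above the highest intact sample for Ifnar1. The log2(KO/intact) was -0.09 ± 0.09 (SE, n = 5 and 5, limma adjusted p = 0.820) for Ifnar1, with a 95% interval of -0.28 to 0.10, and 0.03 ± 0.10 for Ifnar2, with an interval of -0.19 to 0.24. In KO 4 against the other 7 lines the difference was -0.41 ± 0.08 on the log2 scale for Ifnar1 (limma adjusted p = 0.192) and -0.40 ± 0.12 for Ifnar2 (limma adjusted p = 0.588), and neither passed. Both genes lie on chromosome 16, and their r over the 8 lines was 0.807. The low value in KO 4 was not particular to them. Outside the set, Ifngr2 was at 43.9 TPM in KO 4 and 57.1 to 66.3 TPM elsewhere. Il10rb was at 128 TPM in KO 4 and 163 to 194 TPM elsewhere. Ifngr1 (92.0 TPM in KO 4) and Ifnlr1 (14.8 TPM, its highest sample) were not low there. The cause was not tested.

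Among the factors, Stat2 was the most even gene of the set. It was at 22.8 TPM in the parental line, 24.9 and 24.0 in intact clone 1, 24.0 and 24.3 in intact clone 2, and 22.8, 23.1, 22.8, 23.6 and 22.8 in KO 1 to KO 5. The clones without CAMK2D sat below all 4 intact clone samples, and the parental line sat just below the KO clones. The log2(KO/intact) was -0.06 ± 0.04 (SE, limma adjusted p = 0.820, exact permutation p = 0.0476 over samples and 0.179 over lines).

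Irf9, the DNA-binding subunit of the same complex, was at 61.1 TPM in the parental line, 72.3 and 75.9 in intact clone 1, 57.3 and 55.6 in intact clone 2, and 61.4, 48.7, 64.0, 56.2 and 64.2 in KO 1 to KO 5. Intact clone 1 was the highest line and KO 2 the lowest, and the groups overlapped (log2(KO/intact) -0.12, 95% interval -0.36 to 0.11). Irf1, an induced factor that also acts in the interferon gamma response, was at 80.8, 73.4, 74.5, 77.4 and 74.1 TPM in the intact samples in the same order, and at 80.3, 64.1, 70.5, 59.9 and 71.4 TPM in KO 1 to KO 5. KO 1 was within the intact samples and the other 4 KO clones were below them, with a log2(KO/intact) of -0.14 ± 0.07 (SE, limma adjusted p = 0.759).

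Irf3, a factor held inactive in the resting cell until sensors activate it, was at 90.7, 94.8, 94.9, 85.1 and 84.2 TPM in the intact samples and at 85.6, 90.8, 86.5, 83.3 and 73.0 TPM in KO 1 to KO 5. KO 5 was the only sample that stood well below the others. Irf7, an induced factor that amplifies interferon transcription, was lower, at 4.52, 6.50, 5.16, 5.99 and 7.2 TPM in the intact and 7.68, 5.90, 6.51, 6.81 and 4.09 TPM in the KO samples. It had the highest log2(KO/intact) of the set, 0.06 with a 95% interval of -0.29 to 0.41, which turned negative without the parental line or without KO 1 (-0.017 and -0.015).

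The RNA sensor Ddx58 (RIG-I), the helicase that signals through MAVS, was at 14.9 TPM in the parental line, 17.2 and 14.6 in intact clone 1, 16.0 and 14.8 in intact clone 2, and 16.4, 13.0, 10.6, 12 and 12.7 in KO 1 to KO 5. KO 1 lay among the intact samples and the other 4 KO clones lay below them. The log2(KO/intact) was -0.25 ± 0.10 (SE, n = 5 and 5), with a limma adjusted p of 0.683 and an exact permutation p of 0.0397 over samples and 0.125 over lines. The other sensors were Eif2ak2 (PKR) at 11.6 to 15.8 TPM, Ifih1 (MDA5) at 3.70 to 5.41 TPM, Dhx58 (LGP2) at 1.82 to 3.80 TPM and Zbp1, which binds left-handed nucleic acid, at 0 to 0.44 TPM. Their log2(KO/intact) values ran from -0.15 for Dhx58 to -0.06 for Ifih1. Relay genes outside the set were also expressed in every sample, with Mavs at 86.3 to 109 TPM, Sting1 at 78.1 to 102 TPM and Cgas at 9.43 to 15.9 TPM.

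The IFIT genes encode proteins that bind foreign RNA and lie close together on chromosome 19. Ifit1 was at 24.7 TPM in the parental line, 19.1 and 20.1 in intact clone 1, 21.6 and 21.6 in intact clone 2, and 12.3, 22, 16.5, 21.5 and 17.98 in KO 1 to KO 5. Ifit3 was at 24.5 TPM in the parental line, 14.3 and 13.8 in intact clone 1, 21.1 and 21.1 in intact clone 2, and 17.8, 15.6, 9.75, 14.4 and 17.99 in KO 1 to KO 5. The lowest line was KO 1 for Ifit1, followed by KO 3, and KO 3 for Ifit3. Ifit2, at 34.1 TPM in KO 3 and 45.8 to 55.5 TPM elsewhere, followed Ifit3 (r = 0.852 over the 8 lines) more than Ifit1 followed Ifit3 (r = 0.336).

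The parental line was the highest line for all 3 IFIT genes, and the samples of each intact clone lay close together. In KO 3 against the other 7 lines the difference was -0.53 ± 0.11 for Ifit2 and -0.79 ± 0.27 for Ifit3 on the log2 scale, with limma adjusted p of 0.245 and 1.00. In KO 1 the difference of Ifit1 was -0.68 ± 0.18 (limma adjusted p = 0.164). Of the 50-base windows of Ifit3 transcripts, 51.2% also occur in Ifit3b, so reads may have been divided between these copies. The sum of both copies gave a log2(KO/intact) of -0.32, against -0.31 for Ifit3 alone.

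**Figure D3:**
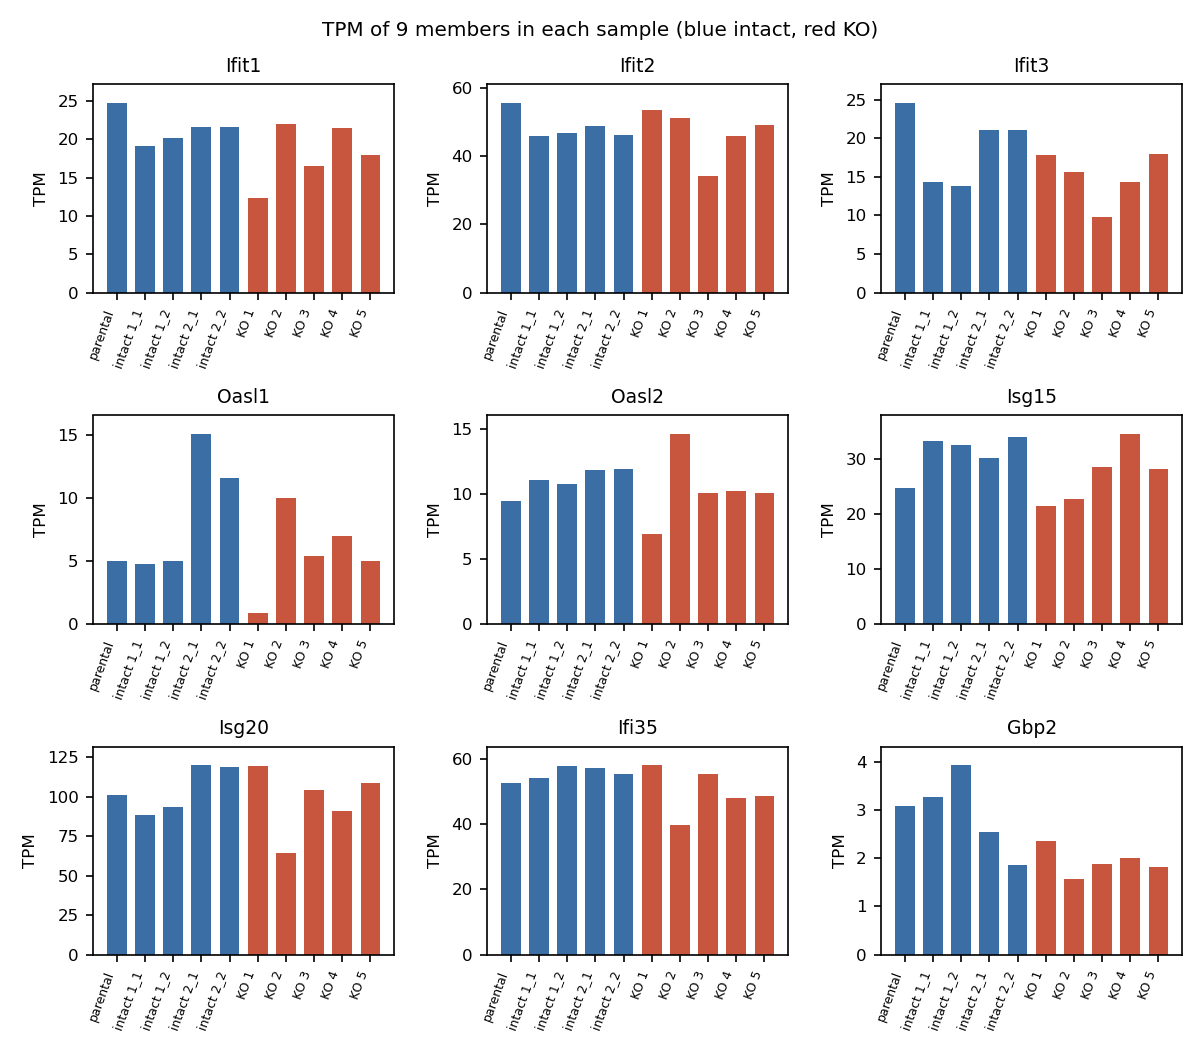
TPM of 9 genes of the set in each sample, with the intact samples in blue and the KO clones in red, each bar a single sample and each axis starting at 0. Oasl1 is at 15.03 and 11.53 TPM in intact clone 2 and at 0.84 TPM in KO 1, Ifit3 is lowest in KO 3, and Isg20 and Ifi35 are lowest in KO 2.

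The widest range of the set was that of Oasl1, an oligoadenylate synthetase-like gene known as a brake on Irf7 translation. Oasl1 was at 4.97 TPM in the parental line, 4.76 and 5.01 in intact clone 1, 15.03 and 11.53 in intact clone 2, and 0.84, 10, 5.36, 6.94 and 4.96 in KO 1 to KO 5. Both samples of intact clone 2 were above all others and KO 1 was below all others, while 5 samples from 4 lines sat near 5 TPM. The SD of log2(TPM + 1) was 0.87 between the 8 lines and 0.18 between samples of the same clone, which may hold technical spread only. In KO 1 against the other 7 lines the difference was -2.07 ± 0.48 (SE), with a 95% interval of -3.18 to -0.96 and a limma adjusted p of 0.106, and this p was 0.0580 to 0.175 over the alternatives. In intact clone 2 the difference was 1.3 ± 0.75 with a limma adjusted p of 1.00.

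Its neighbour Oasl2 was at 9.48 TPM in the parental line, 11.1 and 10.7 in intact clone 1, 11.9 and 11.9 in intact clone 2, and 6.91, 14.6, 10.1, 10.2 and 10.1 in KO 1 to KO 5. KO 1 was again the lowest and KO 2 the highest. Over the 8 lines Oasl1 and Oasl2 had the highest r of the 465 pairs in the set, 0.895. Oas2, a synthetase of the oligoadenylates that activate RNase L, was at 0.90, 1.46, 1.06, 0.99 and 0.86 TPM in the intact samples and at 1.52, 0.32, 0.58, 0.59 and 0.29 TPM in KO 1 to KO 5. For Oas2 it was KO 1 that was the highest sample of all and the other 4 KO clones that were below the intact ones.

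Oas1a, at 2.99 to 7.65 TPM, was highest in intact clone 2, but 57.6% of its windows also occur in Oas1g. Its log2(KO/intact) was -0.04 alone and 0.06 for the sum of both copies, so no direction can be given for it.

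Isg15, the ubiquitin-like protein that is conjugated to other proteins during the response, was at 24.7 TPM in the parental line, 33.4 and 32.6 in intact clone 1, 30.3 and 34.0 in intact clone 2, and 21.5, 22.8, 28.6, 34.5 and 28.2 in KO 1 to KO 5. The highest and the lowest sample were both KO clones, KO 4 and KO 1, and the parental line was below all 4 intact clone samples. The log2(KO/intact) was -0.20 ± 0.13 (SE, limma adjusted p = 0.783) with a 95% interval of -0.49 to 0.09. Usp18, the protease that removes ISG15 and damps the receptor, was at 10.95 to 14.33 TPM, and Trim25, a ubiquitin ligase for RIG-I, was at 17.2 to 23.4 TPM. Parp9 was at 23.8 to 24.2 TPM over the 5 intact samples and 21.3 to 26.0 TPM in the KO clones, and its partner Parp14 at 3.31 to 5.67 TPM.

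Isg20, an exonuclease that degrades RNA, was the only gene of the set that passed the threshold in any comparison. It was at 101 TPM in the parental line, 88.2 and 93.1 in intact clone 1, 119.7 and 119 in intact clone 2, and 119, 64.2, 104, 90.8 and 109 in KO 1 to KO 5. KO 2 was below all other samples, and the other 4 KO clones lay within the range of the intact samples. In KO 2 against the other 7 lines the difference was -0.69 ± 0.15 on the log2 scale (limma adjusted p = 0.0329, 95% interval -1.04 to -0.34), and the adjusted p was 0.0229 to 0.0660 over the alternatives. The call was lost, at adjusted p of 0.0612, 0.0660 and 0.0636, without the parental line, KO 3 or KO 5. In KO 2 7.68% of all genes tested were called, so 1 of 36 genes of the set is a share below the background.

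Ifi35, a cytoplasmic protein of the response, followed Isg20 over the lines (r = 0.838), with 39.8 TPM in KO 2 and 47.9 to 57.9 TPM elsewhere. Its difference in KO 2 was -0.41 ± 0.11 (limma adjusted p = 0.0551), just outside the threshold. Bst2 (tetherin), which holds budding virus at the cell surface, was at 50.2 to 63.7 TPM, and KO 2 (50.2 TPM) and the parental line (50.8 TPM) were its lowest samples.

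Group differences of 2 effectors of low level rested on different lines. Ifi44 was at 1.80 TPM in the parental line, 1.87 and 2.35 in intact clone 1, 3.47 and 3.58 in intact clone 2, and 1.80, 2.46, 0.84, 2.05 and 1.03 in KO 1 to KO 5. Intact clone 2 was the highest line and KO 3 and KO 5 the lowest, with a log2(KO/intact) of -0.46 ± 0.22 (SE, limma adjusted p = 0.729) that was -0.23 without intact clone 2. Gbp2, a guanylate-binding GTPase that is also induced by interferon gamma, was at 3.08 TPM in the parental line, 3.27 and 3.92 in intact clone 1, 2.55 and 1.85 in intact clone 2, and 2.36, 1.56, 1.87, 2.00 and 1.81 in KO 1 to KO 5. The parental line and intact clone 1 were above all KO clones, whereas the second sample of intact clone 2 was among them. The log2(KO/intact) was -0.41 ± 0.15 (SE, n = 5 and 5), with a limma adjusted p of 0.646 and an exact permutation p of 0.0317 over samples and 0.0357 over lines. It was -0.60 to -0.33 over the alternatives.

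Rtp4, a chaperone of membrane receptors, was at 12.4, 13.5, 14.9, 14.9 and 16.2 TPM in the intact samples and at 18.2, 12.4, 9.31, 9.95 and 7.92 TPM in KO 1 to KO 5. KO 1 was above every intact sample and the other 4 KO clones were below them all, KO 2 only just. Cmpk2, a mitochondrial nucleotide kinase, was at 2.04, 2.73, 1.44, 3.45 and 3.33 TPM in the intact and 1.17, 2.32, 1.36, 3.91 and 1.39 TPM in the KO samples, and the samples of intact clone 1 were as far apart as many lines. Rsad2 (viperin), which lies next to Cmpk2 on chromosome 12, was at 0.92, 0.94, 1.45, 1.68 and 2.03 TPM in the intact and 0.51, 1.11, 1.1, 1.33 and 0.66 TPM in the KO samples. Intact clone 2 was the highest and KO 1 the lowest line for Rsad2, and its r with Cmpk2 over the 8 lines was 0.817. Xaf1 was at 6.91 to 12.1 TPM and Gbp3 at 0.28 to 0.86 TPM, both with the groups overlapping.

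Each of the 8 lines was then compared with the other 7, with 1 value per line, so that the lone line is assumed to vary like the others. No gene of the set passed an adjusted p of 0.05 by limma in the parental line, intact clones 1 and 2, KO 1, KO 3, KO 4 or KO 5. In those lines 0.285%, 0.535%, 0.39%, 1.06%, 0.33%, 0.26% and 0.24% of all genes were called. At an unadjusted p of 0.05 the number of genes of the set was 0 of 36 in the parental line, where 3.07% of all genes passed, 2 in intact clone 1 (2.79% of all genes), 3 in intact clone 2 (2.46%), 5 in KO 1 (12%), 4 in KO 2 (22.2%), 3 in KO 3 (3.03%), 3 in KO 4 (5.2%) and 2 in KO 5 (3.23%). The 5 in KO 1 went in both directions, with Ifnar2 and Oas3 higher and Ifit1, Oasl1 and Oasl2 lower. All 3 in intact clone 2 were higher, namely Oas1a (0.61), Rsad2 (0.55) and Dhx58 (0.51 on the log2 scale), each with a limma adjusted p of 1.00.

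**Figure D4:**
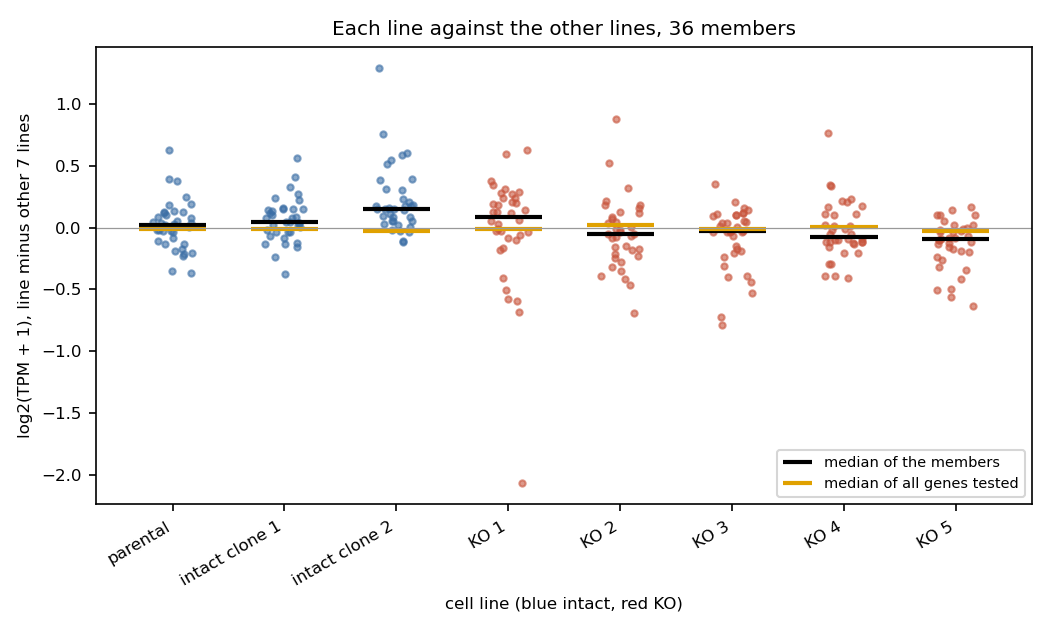
Difference of each cell line from the mean of the other 7 lines for the 36 tested genes (points, log2 of TPM + 1, blue for intact and red for KO lines), with the median of the set (black bar) and of all genes tested (yellow bar). Intact clone 2 has the highest median of the set (0.15) and KO 5 the lowest (-0.09), and the lowest point is Oasl1 in KO 1.

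Intact clone 2 was the line with the most genes of the set above the other lines, 31 of 36 (86.1%, against 40.8% of all genes), with a median difference of 0.15 against -0.03 for all genes. It was the highest line for 9 of the 36 genes (25% against 5.77% of all genes) and the lowest for none (13.2% of all genes). KO 1 was also the highest line for 9 genes, where 17.7% of all genes had their highest value, and the lowest for 7, where 18.1% of all genes had their lowest, and its median difference was 0.09. KO 5 had 28 of 36 genes below the other lines (77.8%, against 57.6% of all genes), with a median of -0.09 against -0.03 for all genes. In both samples of intact clone 2 the mean of the centred genes was above that of any other sample (0.22 and 0.20, against -0.12 to 0.05 elsewhere), and so was their median (0.13 and 0.16), but by the median KO 1 was close behind at 0.11, against -0.03 by the mean. These shifts have no test of their own, since the genes of the set are not independent.

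The other genes of the pathway were taken from companion lists. The list of interferon ligands held only 1 tested gene, Ifnk, with a log2(KO/intact) of 0.27. Of all genes tested 42.7% were lower in KO and 6.99% had an unadjusted p under 0.05. Of 55 tested genes that interferon also induces, 33 (60%) had a lower mean in the KO samples, with a median log2(KO/intact) of -0.03, and limma called 0, with 3 at an unadjusted p of 0.05. Of 21 tested genes of nucleic acid sensing and relay 12 (57.1%) were lower and 9 higher (median -0.02), and of 18 receptor and signal genes 9 were lower and 9 higher (median -0.01), with 0 called and 0 at an unadjusted p of 0.05 in either list. Of 15 tested genes of antigen presentation by MHC class I 13 (86.7%) were lower (median -0.14), with 0 called and 1 at an unadjusted p of 0.05. In intact clone 2 against the other lines 37 of the 55 other induced genes (67.3%, median 0.05) and 14 of the 15 MHC class I genes (93.3%, median 0.11) were on the higher side, against 40.8% of all genes, and limma called 0 in either list, with 1 and 2 at an unadjusted p of 0.05, which 2.46% of all genes passed. Of the sensing and relay genes 11 of 21 were on the higher side in intact clone 2 (52.4%, median 0.0043), and of the receptor and signal genes 8 of 18 (44.4%, median -0.02), with 0 called in either list.

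In KO 2, where limma called 7.68% of all genes, it called 0 of the 55 other induced genes, 2 of 21 sensing and relay genes, 3 of 18 receptor and signal genes and 3 of 15 MHC class I genes, with 11, 7, 7 and 4 at an unadjusted p of 0.05, which 22.2% of all genes passed. The called genes went both ways. Trex1, the exonuclease that clears cytosolic DNA, was higher by 0.78 ± 0.10 on the log2 scale (limma adjusted p = 0.00517), with 30.5 TPM against 15.9 to 19.0 TPM elsewhere. Tyk2, the kinase bound to IFNAR1, was higher by 0.37 ± 0.06 (limma adjusted p = 0.0130). Adar, which edits double-stranded RNA, was lower with a difference of -0.47 ± 0.09 (limma adjusted p = 0.0153), with 24.0 TPM against 30.9 to 36.7 TPM elsewhere. The receptor subunit Ifnlr1 was lower (-0.58) and the phosphatase Ptpn6 higher (0.43), and of the 15 MHC class I genes H2-K1 (0.33) and B2m (0.49) were higher and H2-T23 (-0.76) lower. KO 2 also differed in collecting duct markers (Avpr2 -1.0, Hsd11b2 2.28, Epcam 0.36) and in Cd68 (0.90), and the part of these in the interferon genes was not tested.

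The spread of the set between lines was set beside that between samples of the same clone, which may be technical only. For the 31 genes with a mean of at least 1 TPM, the median SD of log2(TPM + 1) was 0.06 between the samples of an intact clone and 0.21 between the 8 lines. For all 13047 genes at that level the medians were 0.07 and 0.15. The SD between lines exceeded the SD within clones in 28 of the 31 genes (90.3%, against 81.9% of all genes at that level), with Parp14, Trim25 and Xaf1 as the exceptions, and it was above the median of all genes in 23 of 31. The line values spanned more than 1 on the log2 scale in 5 genes (Oasl1, Ifi44, Ifit3, Cmpk2 and Rtp4) and less than 0.5 in 12.

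**Figure D5:**
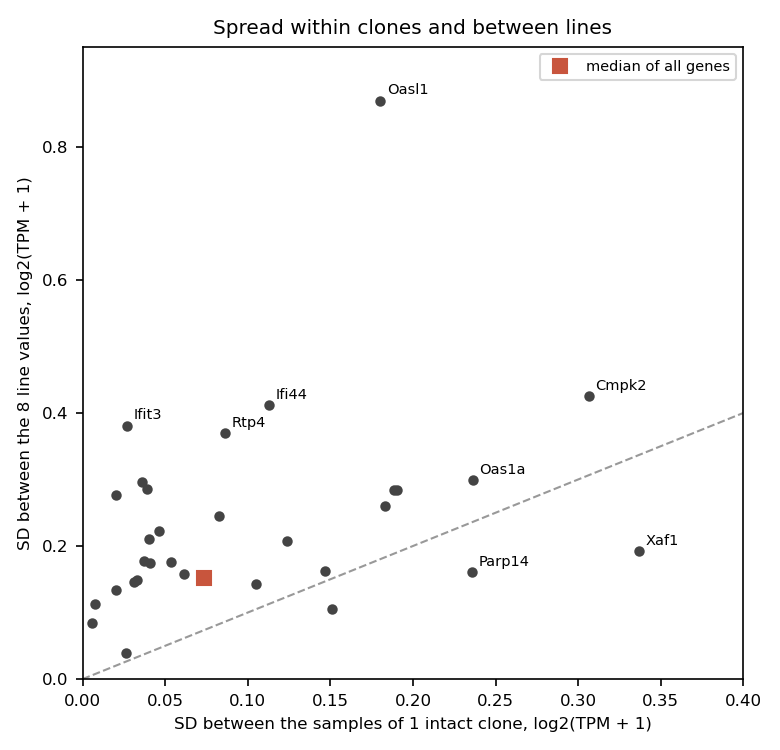
Standard deviation of log2(TPM + 1) between the samples of an intact clone (x axis) and between the 8 line values (y axis) for the 31 genes of the set with a mean of at least 1 TPM, with the dashed line at equal values and the red square at the median of all 13047 genes at that level. Of the 31 genes 28 lie above the line, and Oasl1 has the highest value between lines.

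The genes did not move as a single block. The median r between pairs of the 31 genes over the 8 lines was 0.152, against 0.024 for pairs of all genes, and 63.9% of the pairs were above 0, against 51.8%. Pairs with an r above 0.8 made up 1.94% of the 465 pairs in the set and 2.34% of all pairs. Among the 9 such pairs were 4 of related or nearby genes on the same chromosome (Oasl1 and Oasl2, Ifit2 and Ifit3, Cmpk2 and Rsad2, Ifnar1 and Ifnar2). The other 5 were Oasl1 and Rsad2, Ddx58 and Rtp4, Isg20 and Ifi35, Ddx58 and Parp14, and Xaf1 and Oas1a. The lowest r was that of Trim25 and Oasl2, -0.841. With 8 lines and shared libraries these values describe the table and carry no test.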

How the data were processed

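RNA of 10 samples had been converted with SMART-Seq v4, tagged with Nextera XT and sequenced as 50-base pairs. Per the labels the authors used STAR and RSEM, and they deposited a single table of TPM for 55414 genes, scaled so that each column has the same sum. TPM hold no read depth, so precision by depth is unknown, and the authors' count-based test could not be repeated. All 10 value columns were used and 0 were left out.

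The genes of the set and all companion lists were chosen with earlier results of these data known. From the table, log2(TPM + 1) was computed and limma 3.58.1 (R 4.3.3, intensity trend) was fitted to the 20000 genes of highest mean TPM, the lowest at 0.049, with Benjamini-Hochberg adjustment at 0.05. The pseudocount of 1 makes fold changes of low genes smaller. KO and intact samples were compared 5 against 5 with no covariate, and each line against the other 7 with 1 value per line. Values in every sample were given for genes past a threshold, for genes whose groups did not overlap or whose two-sided exact permutation p was under 0.05, for the 10 genes of widest line range, the 5 of highest mean TPM, and Ifnar1, Ifnar2, Stat2, Irf9, Irf3, Irf7 and Isg15. Genes outside the set were named where they passed a threshold, served to check labels or cell type, or define the pathway. Other receptor genes of the companion lists were named beside Ifnar1 and Ifnar2 after the values were seen. The fits were also run on simulated data, in which 200 of 20000 genes were changed, and recovered 92% of changes of 1 and 97% of changes of 2 on the log2 scale for KO against intact, and 54% and 89.5% for 1 line against the other 7. The changed genes all had a mean log2(TPM + 1) above 1, and samples were drawn as independent, unlike the pairs of an intact clone. The KO differences of the set ran from -0.55 to 0.06, and changes that small were not simulated. These rates therefore give no power for them.

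Alternatives were pseudocounts of 0.1 and 0.5, other filters, median-ratio and quantile rescaling, no trend, robust moderation, a threshold of 0.1, cell line as a random effect, 1 value per line, all 10 samples for the line comparisons, and leaving out each sample. Leaving out both samples of intact clone 2, the counts of genes by direction, and the permutation test over lines were added after the data were seen. Between the samples of an intact clone 1.37% and 1.46% of genes of at least 1 TPM had equal values, so these pairs were not copies. The other samples were not compared in this way. Promoter windows were those of RefSeq on GRCm38.p6.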

Additional observations from a re-analysis of the deposited data

Results flagged for a closer look

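In 4 of 74 groups of 5 samples, a single sample lay far from the other 4 relative to the range of the group, and chance marks about 1 in 20 groups. Oas2 was at 1.52 TPM in KO 1 and at 0.29 to 0.59 TPM in the other KO clones. Eif2ak2 was at 12.81 TPM in the first sample of intact clone 1 and at 14.9 to 15.8 TPM in the other intact samples, and Ifnar1 was at 94.09 TPM in that sample against 84.3 to 87.1 TPM. Zbp1 was at 0.44 TPM in the first sample of intact clone 2 against 0.10 to 0.18 TPM.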

How the results depend on the processing

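No gene of the set was called in KO against intact samples under any of 22 alternatives, nor in any line but KO 2 under 19 or 20 alternatives each. In KO 2 the number called was 2, Isg20 and Ifi35, with a threshold of 0.1, with genes of at least 1 TPM, with median-ratio or quantile rescaling and with all 10 samples, and it was 0 to 2 when single samples were left out. With single samples left out the log2(KO/intact) changed sign in 9 of 36 genes. Among those given in every sample these were Irf7 (-0.017 to 0.18, negative without the parental line or KO 1), Isg20 (-0.19 to 0.027, positive without KO 2), Oasl2 (-0.23 to 0.015, positive without KO 1) and Ifnar2 (-0.047 to 0.11, negative without KO 1), and the others were Ifit2, Oas1a, Bst2, Xaf1 and Gbp3. Ifnar2 was also at -0.0025 with median-ratio rescaling and -0.00045 with quantile normalization, and Isg20 at 0.022 without intact clone 2. The cause was not tested. The count of genes lower in KO was 29 to 34 of 36, and 28 of 31 at 1 TPM or more. The count higher in intact clone 2 was 29 to 33 of 36. No paired analysis was possible because the numbers pair no KO clone with an intact sample: each KO number names its own clone, and the intact numbers run over the parental line and the samples of 2 clones. Depth is unknown, and the line comparisons have 7 lines to set their spread.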

Other observations

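Outside the listed genes, those whose level over the 8 lines was most like the mean of the standardized genes of the set were Gm27006 (r = 0.947), mt-Rnr1 (0.897), Pkia (0.889), Lamp2 (0.888), Gm5512 (0.885), H60c (0.882), Atp6ap2 (0.873), Gm4419 (0.872), Pspc1 (0.867) and Nsun6 (0.862). The mean of the set that they followed was highest in intact clone 2 and lowest in KO 5. H60c, a ligand of the NKG2D receptor, had the widest range of these, 0.97 to 6.54 TPM over the samples. Lamp2 and Atp6ap2, which act in lysosomes and in the proton pump, were abundant and even, at 134 to 155 and 93.5 to 113.6 TPM. These r describe 8 values each, picked from the genes with a mean of at least 1 TPM, and carry no test.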
